A study of Mus musculus with 16 samples.

Results

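The acyl-CoA thioesterases were taken as the rows of the gene count table with the symbols Acot1, Acot2, Acot3, Acot4, Acot7, Acot8, Acot9, Acot11 and Acot13, which gave 9 of 20295 genes. The 9 genes were chosen by name, and 8 of them were among the 12786 genes kept for testing by a filter on low counts. RNA-seq was performed in brown adipocytes differentiated for 7 days from a mouse brown preadipocyte line of wild-type genotype, made immortal with the large T antigen of SV40. All cells were cultured for 1 h with or without an inhibitor and then for 3 h with or without SR-3420, a ligand of ABHD5 that releases this co-activator of the lipase ATGL and so starts lipolysis without a β-adrenergic agonist. The vehicle group had 2 samples, SR-3420 alone had 2, and there were 3 samples each for triacsin C (TC, 5 µM), TC with SR-3420, etomoxir (ETO, 50 µM) and ETO with SR-3420. The sample labels spell the first inhibitor Triascin C, and they give 10 µM for SR-3420, whereas the text of the study gives a higher dose. The 16 samples are cultures of 1 line. The study describes its sequenced samples as separate experiments, so p-values measure the spread between experiments with this line, and not between animals or lines. The libraries held 9452861 to 25670624 counts each (median 13602886).

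Acyl-CoA thioesterases split an acyl-CoA into a free fatty acid and coenzyme A, the reverse of what acyl-CoA synthetases do, and so set how much activated fatty acid is present in the cytosol, mitochondria and peroxisomes. Triacsin C inhibits several long-chain acyl-CoA synthetases, and etomoxir inhibits carnitine palmitoyltransferase 1, through which long-chain acyl-CoA enters mitochondria. Several Acot genes are known targets of the fatty acid-activated PPAR receptors, and brown fat is a tissue in which fatty acids released by lipolysis are burnt for heat. The comparisons ask what SR-3420 does to these genes alone and when activation of fatty acids or their entry into mitochondria is blocked.

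The members Acot1, Acot2, Acot3 and Acot4 are neighbouring copies on mouse chromosome 12, and their sequences decide how well their reads can be told apart. In the table, on the mm9 build, Acot2 lay at chr12:85328811-85334825, Acot1 at chr12:85350452-85358619, Acot4 at chr12:85379329-85385673 and Acot3 at chr12:85393101-85400514, all on the plus strand. Over the coding sequences, Acot1 and Acot2 had the same base at 1180 of 1239 aligned positions (95.2%), Acot3 and Acot2 at 1063 of 1272 (83.6%) and Acot4 and Acot2 at 910 of 1239 (73.4%). The following 60-base stretch of coding sequence, within 1 exon of each gene, shows this, with capitals at the bases that differ from Acot2. It was taken as the first gapless stretch in which Acot4 and Acot2 were about as alike as over the whole alignment.
Acot2, chr12:85331458-85331517: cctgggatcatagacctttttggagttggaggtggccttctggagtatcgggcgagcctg
Acot1, chr12:85355343-85355402: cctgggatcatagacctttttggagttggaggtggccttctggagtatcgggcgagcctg
Acot4, chr12:85382801-85382860: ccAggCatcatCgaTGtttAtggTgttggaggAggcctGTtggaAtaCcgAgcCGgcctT
Acot3, chr12:85397873-85397932: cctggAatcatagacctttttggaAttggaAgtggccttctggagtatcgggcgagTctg
In this stretch Acot1 did not differ from Acot2, whereas Acot3 differed at 4 bases and Acot4 at 16. Of all 50-base stretches of the annotated coding transcript, 47.3% in Acot1, 27.7% in Acot2, 12.1% in Acot4 and 10.2% in Acot3 were also found in a transcript of another gene. For Acot1 and Acot2 the gene that shared most was the other one of the pair, for Acot4 it was Acot6 and for Acot3 it was Acot5. How the authors' counting treated reads that match more than 1 place is not given in the sources used here, so the counts of Acot1 in particular are uncertain, and its 756 counts over all samples stand beside 35317 of Acot2. Of the other members, Acot7 and Acot13 shared none of their 50-base stretches, Acot9 shared 20.2% with Acot10, and Acot8 and Acot11 shared 17.7% with Snx21 and 24.4% with Fam151a, genes that overlap them in the table. Whether the counting used the strand is not given either, so reads from the stretches that these overlapping genes share cannot be told apart.

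Per length, Acot2, Acot7 and Acot13 gave the most RNA of the family. The median level over the 16 samples was 70.6 CPM per kb (counts scaled to library size, CPM, divided by the counted length in kb) for Acot2, 65.0 for Acot7, 54.9 for Acot13, 26.6 for Acot9 and 23.0 for Acot8. Acot1, Acot4, Acot3 and Acot11 lay far lower, at 1.75, 1.22, 0.134 and 0.0624 CPM per kb. Acot11, a thioesterase first described in brown fat as induced by cold, had 0 to 11 counts per sample, 67 in all, and was the member left untested. Acot3 had 0 to 20 counts, 95 in all, and reached 10 counts in 2 samples only, both treated with TC alone. It passed the filter through the group where it was high and is described below without being used as support. The summed level of the 9 genes was 193 ± 30.0 CPM per kb (SD, n = 2) in vehicle, 283 ± 57.5 (n = 2) with SR-3420, 273 ± 19.2 (n = 3) with TC, 289 ± 39.5 (n = 3) with TC and SR-3420, 205 ± 33.3 (n = 3) with ETO and 243 ± 33.8 (n = 3) with ETO and SR-3420. Acot2 made up 19.6% of this sum in vehicle and between 25.3% and 31.9% in the other groups. Acot7 made up 23.3% in vehicle, 19.8% with TC and 22.2% with ETO. With SR-3420 it made up 35.1% alone, 33.6% with TC and 32.9% with ETO, more than Acot2 in these groups.

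**Figure D1:**
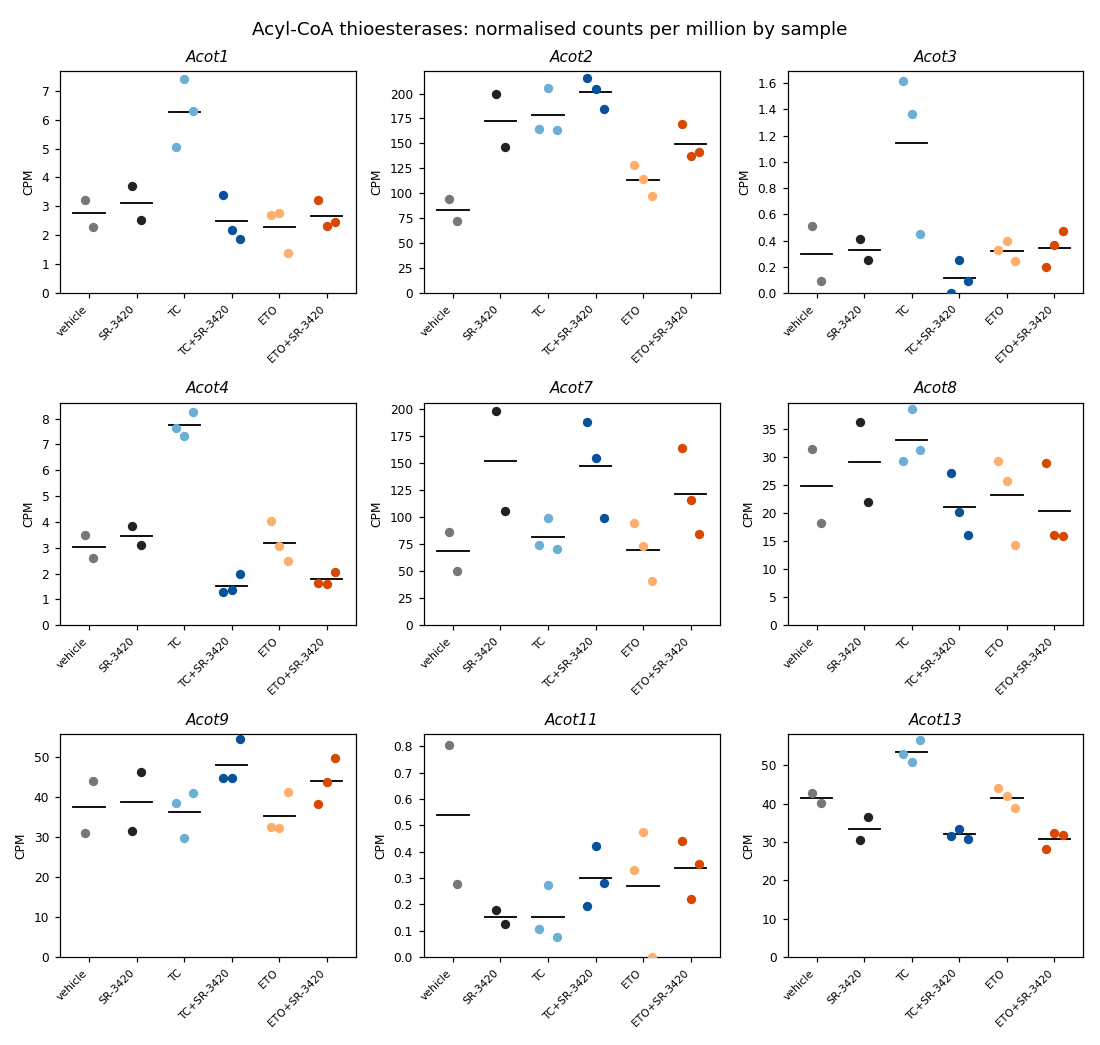
Normalised counts (CPM, y axis, linear from 0) of the 9 acyl-CoA thioesterase genes in each of the 16 samples, by treatment group (x axis). Points are samples and lines are group means. The 3 TC samples of Acot4 sit between 7.32 and 8.27 CPM, above all other samples, and Acot2 is lowest in the vehicle samples, at 72.6 and 94.7 CPM.

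Acot2, the mitochondrial member of the cluster, which acts on long-chain acyl-CoA in the matrix, was higher with SR-3420 and with TC. Its level was 94.7 and 72.6 CPM in the vehicle samples and 199 and 146 CPM in those with SR-3420 alone. The TC samples had 164, 206 and 164 CPM, and those with TC and SR-3420 had 216, 204 and 184 CPM. With ETO it was 128, 115 and 97.5 CPM, and with ETO and SR-3420 it was 170, 138 and 142 CPM. Both vehicle samples lay below all 14 others, and the samples with SR-3420 alone overlapped with those treated with TC, with or without SR-3420. Acot2 rose with SR-3420 against vehicle by a log2FC of 1.05 (SE 0.203, edgeR adjusted p = 0.00728) and with TC against vehicle by 1.09 (SE 0.190, edgeR adjusted p = 0.00190). On top of TC, SR-3420 gave a log2FC of 0.18 (SE 0.163, edgeR adjusted p = 0.421), and on top of ETO 0.40 (SE 0.164, edgeR adjusted p = 0.0933). The Acot2 response to SR-3420 was lower in the presence of TC by a log2 difference of -0.87 (95% interval -1.43 to -0.31, edgeR adjusted p = 0.0998), which did not pass the threshold of 0.05 with edgeR but did with DESeq2 (adjusted p = 0.0459). The rise with SR-3420 rested on few samples: it was 0.87 without vehicle replicate 3 (edgeR adjusted p = 0.0912) and 0.81 without SR-3420 replicate 1 (edgeR adjusted p = 0.0864), and in a model of these groups alone it was 1.02 with an adjusted p of 0.182. Over all alternatives the adjusted p lay between 6.69e-05 and 0.182.

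Acot4, a peroxisomal enzyme that in mouse releases succinate from succinyl-CoA, passed the threshold in 5 of the 9 comparisons, more than any other member. It had 3.51 and 2.58 CPM in the vehicle samples and 3.83 and 3.11 CPM with SR-3420 alone. With TC it had 7.63, 7.32 and 8.27 CPM, and with TC and SR-3420 it had 1.28, 1.35 and 1.97 CPM. With ETO it had 4.02, 3.08 and 2.49 CPM, and with ETO and SR-3420 it had 1.65, 1.61 and 2.06 CPM. The TC samples lay above every other sample, and the samples in which SR-3420 was given with either inhibitor lay below every other sample. The counts behind these values are 16 to 109 per sample. Acot4 rose with TC against vehicle by a log2FC of 1.34 (SE 0.261, edgeR adjusted p = 0.00407) and fell when SR-3420 was added to TC, with a log2FC of -2.34 (SE 0.243, edgeR adjusted p = 1.65e-05). It also fell when SR-3420 was added to ETO, with a log2FC of -0.85 (SE 0.236, edgeR adjusted p = 0.0177). SR-3420 alone gave a log2FC of 0.18 (95% interval -0.42 to 0.79, edgeR adjusted p = 0.767). The response to SR-3420 differed between cells with and without TC by -2.53 (SE 0.372, edgeR adjusted p = 0.00477), and this difference passed the threshold without each sample in turn, with a log2 difference between -2.77 and -2.33. For ETO the corresponding difference was -1.04 (95% interval -1.83 to -0.25, edgeR adjusted p = 0.988) and did not pass.

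Some of the Acot4 calls rested on single samples. The rise with TC was 1.14 without vehicle replicate 3 (edgeR adjusted p = 0.0740, over all alternatives 4.70e-05 to 0.0740). The fall with SR-3420 on top of ETO did not pass without ETO replicate 1 (log2FC -0.65, edgeR adjusted p = 0.0875), without ETO+SR-3420 replicate 1 (-0.80, 0.0544) or without ETO+SR-3420 replicate 2 (-0.80, 0.0676). In a model of the ETO groups alone this fall was -0.87 and did not pass either (edgeR adjusted p = 0.0851).

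Acot1 and Acot13 also fell when SR-3420 was added to TC. Acot1, the cytosolic copy, which is known to respond to PPARα ligands, had 3.22 and 2.31 CPM in vehicle, 3.71 and 2.54 with SR-3420, and 5.05, 7.38 and 6.30 with TC. It had 3.39, 2.19 and 1.88 CPM with TC and SR-3420, 2.70, 2.76 and 1.41 with ETO, and 3.21, 2.34 and 2.47 with ETO and SR-3420. The TC samples lay above all others. Acot1 rose with TC by a log2FC of 1.17 (SE 0.343, edgeR adjusted p = 0.0410), a call lost when vehicle replicate 2 (adjusted p = 0.0952), vehicle replicate 3 (0.300), TC replicate 2 (0.128) or TC replicate 3 (0.0915) was left out, and with no filter on low counts (0.0617). With SR-3420 on top of TC it fell, with a log2FC of -1.31 (SE 0.302, edgeR adjusted p = 0.00412), between -1.62 and -1.15 without each sample in turn. Acot3, a peroxisomal copy, had 15, 20 and 6 counts in the TC samples, against 0, 3 and 1 with TC and SR-3420 and 1 to 8 in all others, and its log2FC of -3.30 (SE 0.778, edgeR adjusted p = 0.00484) rests on these few reads. Without TC replicate 1 or TC replicate 2, Acot3 failed the filter and was not tested.

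Acot13, a small mitochondria-associated thioesterase outside the cluster, had 42.7 and 40.0 CPM in vehicle and 30.6 and 36.4 CPM with SR-3420. It had 53.0, 50.8 and 56.6 CPM with TC and 31.6, 33.5 and 30.9 CPM with TC and SR-3420. With ETO it had 43.9, 41.8 and 38.9 CPM, and with ETO and SR-3420 it had 28.2, 32.3 and 31.8 CPM. All 8 samples with SR-3420 lay below all 8 samples without it. Acot13 fell with SR-3420 on top of TC (log2FC -0.74, SE 0.112, edgeR adjusted p = 0.000219) and on top of ETO (-0.44, SE 0.111, edgeR adjusted p = 0.0115). In a model of the ETO groups alone the latter had an adjusted p of 0.0907, and over all alternatives the adjusted p lay between 0.000154 and 0.0907. SR-3420 alone gave a log2FC of -0.31 (95% interval -0.60 to -0.01, edgeR adjusted p = 0.208). TC against vehicle gave 0.37 (95% interval 0.10 to 0.64, edgeR adjusted p = 0.0753), which did not pass with edgeR but did with DESeq2 (adjusted p = 0.0208).

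**Figure D2:**
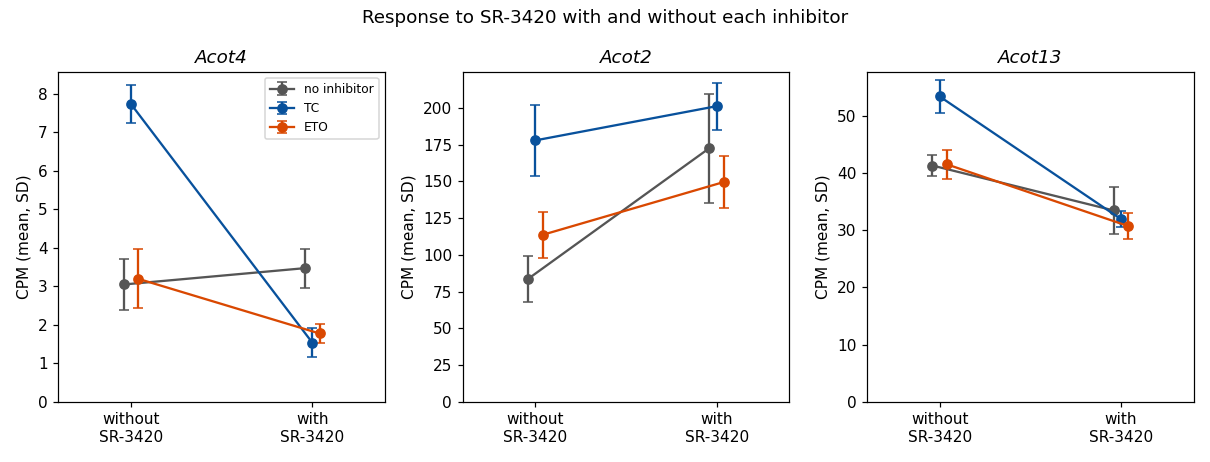
Mean CPM with SD (y axis, linear from 0) of Acot4, Acot2 and Acot13 without and with SR-3420 (x axis), in cells given no inhibitor (n = 2 per point), TC or ETO (n = 3 per point). Acot4 goes from 7.74 to 1.53 CPM when SR-3420 is added to TC and from 3.05 to 3.47 CPM when it is given alone.

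Acot7, a cytosolic long-chain enzyme best known from brain, had 86.3 and 50.4 CPM in vehicle and 198 and 106 CPM with SR-3420. It had 74.2, 99.2 and 70.3 CPM with TC, 188, 154 and 99.5 with TC and SR-3420, 94.9, 72.9 and 41.3 with ETO, and 164, 116 and 84.3 with ETO and SR-3420. Samples of 1 group differed widely, and the groups did not overlap for SR-3420 alone and on top of TC but did on top of ETO. The log2FC with SR-3420 was 1.15 alone (SE 0.443, edgeR adjusted p = 0.142), 0.86 with TC (SE 0.360, edgeR adjusted p = 0.0773) and 0.80 with ETO (SE 0.360, edgeR adjusted p = 0.122), and none of these passed the threshold. With TC, DESeq2 gave an adjusted p of 0.0442 and a model of the TC groups alone 0.0186. With the replicate number as a block, treated below, edgeR gave Acot7 an adjusted p of 0.00374 alone, 0.000852 with TC and 0.000979 with ETO. No source says that a number marks the same experiment in each group, and calls over all genes rose with the block as well. The peroxisomal Acot8 lay between 14.3 and 38.5 CPM and the mitochondrial Acot9 between 29.7 and 54.4 CPM, and neither passed in any of the 9 comparisons. In the model of the TC groups alone Acot8 had an adjusted p of 0.0371 for SR-3420 on top of TC (log2FC -0.63). With the block, Acot8 (edgeR adjusted p = 0.00892) and Acot9 (0.00760) passed in this comparison, and the other calls with the block are given below.

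Counted over the family, SR-3420 alone changed 1 of the 8 tested members, Acot2, beside 7.54% of all genes tested. SR-3420 on top of TC was followed by lower levels of Acot1, Acot4 and Acot13, or 4 of 8 with Acot3 and its few reads, beside 36.9% of all genes. SR-3420 on top of ETO changed 2 of 8, both lower, beside 25.3%. TC against vehicle changed 3 of 8, all higher, beside 11.7%. ETO against vehicle changed none by edgeR, beside 0.0235% of all genes. At an unadjusted p under 0.05 there was 1, Acot2, beside 283 of all 12786 genes, and DESeq2 called 0, beside 17 genes. TC with SR-3420 against SR-3420 alone changed 1 of 8, Acot4, lower, beside 4.58%. Its log2FC was -1.19 (SE 0.266, edgeR adjusted p = 0.0221), and the call was lost without SR-3420 replicate 1 (adjusted p = 0.252), TC+SR-3420 replicate 1 (0.0870) or TC+SR-3420 replicate 2 (0.0765) and in a model of these groups alone (0.153). ETO with SR-3420 against SR-3420 alone changed none by edgeR, beside 0.00782%. At an unadjusted p under 0.05 there was 1, Acot4 (log2FC -0.97, edgeR adjusted p = 0.271), beside 1279 of all genes. DESeq2 called 0 members there, beside 93 genes. The response to SR-3420 differed with TC for 1 of 8, Acot4, beside 2.51%, and with ETO for none by edgeR, beside 0%. For ETO 2 members had an unadjusted p under 0.05, beside 307 of all genes, and DESeq2 called 0, beside 9 genes. These comparisons share samples, so their values are not independent of each other. The percentages of all genes count changes in either direction. Of the 12786 genes, 607 were higher with SR-3420 alone and 610 with TC, and 2514 were lower with SR-3420 on top of TC and 1637 on top of ETO. Taken in either direction, the shares of members lie near those of all genes for SR-3420 alone, with TC and with ETO. With so few members they are descriptions only.

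**Figure D3:**
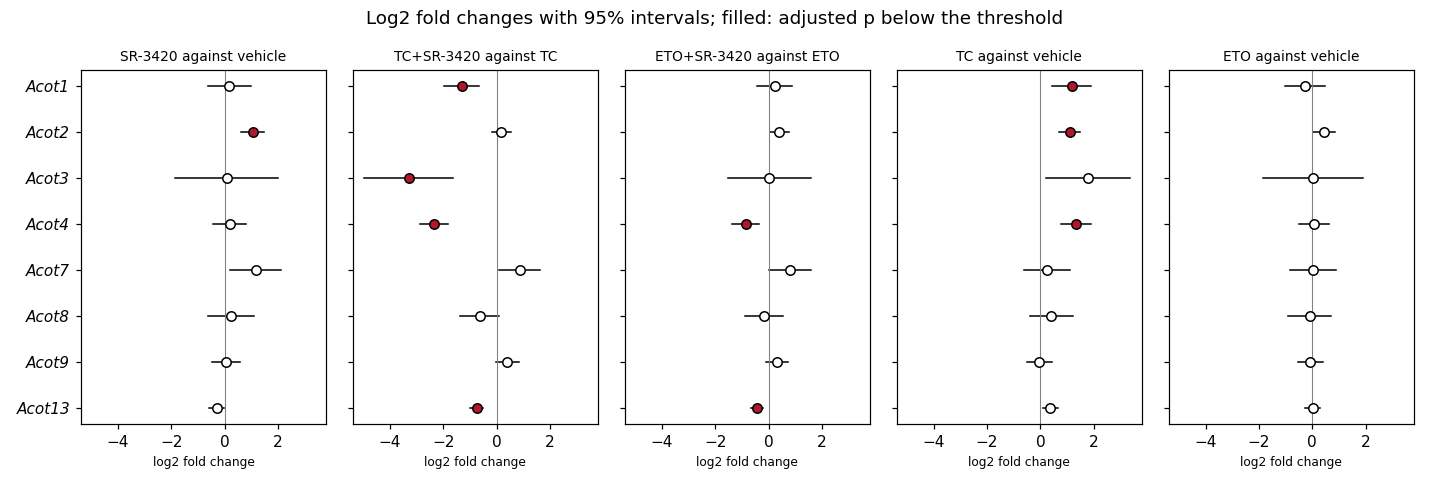
Log2 fold changes (x axis) of the 8 tested members (y axis) in 5 comparisons, with 95% intervals from the edgeR model. Filled points have an adjusted p under 0.05, and these are higher for Acot2 with SR-3420 and for Acot1, Acot2 and Acot4 with TC, and lower for Acot1, Acot3, Acot4 and Acot13 with SR-3420 on top of TC and for Acot4 and Acot13 with SR-3420 on top of ETO. Acot3 rests on few reads and passed the filter on low counts through the TC group, where it was high.

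Genes of fat cells moved in the same samples. As a background for these and the lists that follow, 2208 of the 12786 genes tested rose and 2514 fell with SR-3420 on top of TC, 1597 rose and 1637 fell on top of ETO, 607 rose and 357 fell with SR-3420 alone, and 610 rose and 887 fell with TC. For the TC difference in response 158 were higher and 163 lower. Of 7 adipocyte markers, 6 fell with SR-3420 on top of TC and 5 with SR-3420 on top of ETO, and 1 fell with SR-3420 alone. With TC against vehicle 1 fell, Pparg (log2FC -1.48, SE 0.189, edgeR adjusted p = 0.000182). Their summed level was 19172 and 16131 CPM in vehicle, 15356 and 12611 with SR-3420, and 17973, 20229 and 18443 with TC. It was 7682, 7465 and 7380 CPM with TC and SR-3420, 18005, 16239 and 16481 with ETO, and 10504, 6880 and 11339 with ETO and SR-3420. The most abundant was Fabp4, the fatty acid binding protein of adipocytes, and none was at 0. Of 5 preadipocyte markers, none passed with SR-3420 alone and 2 rose in each of the comparisons of SR-3420 with TC and with ETO. Their summed mean was 336 CPM in vehicle and 489 with SR-3420, 403 with TC and 479 with TC and SR-3420, and 311 with ETO and 497 with ETO and SR-3420, with Pdgfrb the most abundant. The part of these markers in the falls of Acot1, Acot4 and Acot13 was not tested, and fewer cells of a type and less RNA per cell cannot be told apart in such samples. The 8 brown adipocyte markers, led by Cox8b, summed to 239 CPM in vehicle and 208 with SR-3420, 238 with TC and 111 with TC and SR-3420, and 224 with ETO and 152 with ETO and SR-3420. Cox8b fell with SR-3420 alone (log2FC -0.98, SE 0.212, edgeR adjusted p = 0.0140) and on top of ETO (-1.25, SE 0.174, edgeR adjusted p = 0.000245). It also fell with SR-3420 on top of TC (log2FC -1.99, SE 0.178, edgeR adjusted p = 7.01e-06). Among them Dio2 had no counts in vehicle, in TC with SR-3420 or in either ETO group, and at most 2 counts in any sample. Of 7 tested, 3 fell and 1 rose with SR-3420 on top of TC. With TC against vehicle 2 fell, Prdm16 (log2FC -2.14, SE 0.286, edgeR adjusted p = 0.000255) and Ppargc1a (-1.04, SE 0.262, edgeR adjusted p = 0.0196), which the sum led by Cox8b does not show. Ucp1, which defines heat-producing brown fat cells, was low throughout, with a mean of 1.22 CPM in vehicle and 3.20 CPM with TC and SR-3420. Summed macrophage markers, mostly Cd68, stood at 5.42 CPM in vehicle and 8.43 with SR-3420, 17.4 with TC and 8.91 with TC and SR-3420, and 6.76 with ETO and 7.66 with ETO and SR-3420. Cd68 rose with TC (log2FC 1.92, SE 0.269, edgeR adjusted p = 0.000366) and fell with SR-3420 on top of TC (-1.29, SE 0.225, edgeR adjusted p = 0.000651). Its TC difference in response was -1.98 (SE 0.362, edgeR adjusted p = 0.0139). Acot4 had the same directions, and a link between them was not tested. Csf1r, the other macrophage marker tested, passed in none of these. Summed endothelial and muscle markers did not exceed 3.58 and 12.4 CPM in any sample. The endothelial sum was 1.56 CPM with TC and 2.75 with TC and SR-3420, and 1.51 with ETO and 3.22 with ETO and SR-3420, and Kdr, the 1 gene of it tested, rose on top of TC (log2FC 0.96, SE 0.306, edgeR adjusted p = 0.0246) and on top of ETO (1.28, SE 0.298, edgeR adjusted p = 0.00681).

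Of 22 other thioesterases listed, 12 were tested. With SR-3420 on top of TC, 6 of them fell and 0 rose, with a median log2FC of -0.43 against 0.02 for all genes. They included Acot6, a further copy of the cluster (log2FC -2.12, SE 0.412, edgeR adjusted p = 0.00137), and Them6 (-1.62, SE 0.360, edgeR adjusted p = 0.00330). With SR-3420 on top of ETO 2 fell, Them6 and Hibch, the hydrolase of valine breakdown, and with SR-3420 alone or TC alone none passed by edgeR. For SR-3420 alone the median was -0.22 against -0.0038 for all genes.

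The acyl-CoA synthetases, which make the substrates, were counted as 16 listed and 13 tested. SR-3420 on top of TC was followed by 7 lower and 1 higher (median log2FC -0.92), SR-3420 on top of ETO by 7 lower and 1 higher (median -0.68), and SR-3420 alone by 2 lower and 1 higher (median -0.43). The higher gene was Acsbg1, with a log2FC of 1.80 with SR-3420 alone (SE 0.349, edgeR adjusted p = 0.00724). Acsl1, the main long-chain synthetase of fat, had a log2FC of -0.84 with TC against vehicle (SE 0.229, edgeR adjusted p = 0.0294). Of 19 tested genes of coenzyme A supply and acyl-CoA binding, 11 fell and 1 rose with SR-3420 on top of TC, and 11 fell and 1 rose on top of ETO. Ppcs, an enzyme of coenzyme A synthesis, had the same direction as Acot4 in these comparisons: it rose with TC (log2FC 1.01, SE 0.198, edgeR adjusted p = 0.00407) and fell when SR-3420 was added to TC (-1.69, SE 0.177, edgeR adjusted p = 1.79e-05).

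PPAR targets of fatty acid handling showed both directions. Of 24 tested, 6 rose and 0 fell with SR-3420 alone, 4 rose and 12 fell with SR-3420 on top of TC, 4 rose and 6 fell on top of ETO, and 4 rose and 0 fell with TC. Pdk4, a kinase that shuts pyruvate out of oxidation, had a log2FC of 2.25 with SR-3420 alone (SE 0.210, edgeR adjusted p = 4.28e-05) and 1.19 on top of TC (SE 0.166, edgeR adjusted p = 0.000124). Cpt2, the inner-membrane carnitine transferase, fell by 1.93 on the log2 scale on top of TC (SE 0.144, edgeR adjusted p = 1.73e-06). Among these genes 8 had a lower response to SR-3420 with TC than without it, and none a higher one.

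The promoters of the members that rose with TC are given here. Promoters of 8 of the 9 members were found by symbol in RefSeq sequences of build GRCm38.p6, each reaching from 250 bases before the start to 50 after it. They were searched on both strands for the direct repeat of AGGTCA with 1 base between, to which PPAR receptors are known to bind, with up to 2 mismatches among its 12 letters. Among the members a match was found in Acot4 only, against 3.86% of 32851 promoters of that length. Of the related Acot5, Acot10 and Acot12, which are not members, Acot12 had a closer match, with 1 mismatch. The bases before the start follow, with the match in capitals where there is one.
Acot4, chr12:84038129-84038378, plus strand: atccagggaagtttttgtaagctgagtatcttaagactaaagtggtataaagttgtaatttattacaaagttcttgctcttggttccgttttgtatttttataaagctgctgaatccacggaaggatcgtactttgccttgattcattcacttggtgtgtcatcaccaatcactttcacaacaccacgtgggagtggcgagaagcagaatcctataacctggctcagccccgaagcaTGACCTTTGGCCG
Acot2, chr12:83987611-83987860, plus strand: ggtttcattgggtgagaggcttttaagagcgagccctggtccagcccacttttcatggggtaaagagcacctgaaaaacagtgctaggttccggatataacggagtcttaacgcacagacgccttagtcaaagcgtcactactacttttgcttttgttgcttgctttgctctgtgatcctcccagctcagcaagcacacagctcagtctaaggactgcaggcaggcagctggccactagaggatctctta
Acot1, chr12:84009252-84009501, plus strand: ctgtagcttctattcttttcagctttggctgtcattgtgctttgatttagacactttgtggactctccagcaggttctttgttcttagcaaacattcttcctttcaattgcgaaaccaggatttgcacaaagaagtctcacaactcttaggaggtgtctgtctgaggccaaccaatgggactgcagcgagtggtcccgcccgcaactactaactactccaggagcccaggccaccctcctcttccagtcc
The match in Acot4 begins 13 bases before the start, lies on the other strand and has 2 mismatches. It is a description of letters and not a site shown to be bound.

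Over the 16 samples, the genes most like each member were sought by Pearson's r of log2(CPM + 1), leaving out other members. For Acot4 they were Aldh9a1 (r = 0.956), Blcap (0.954) and Tmem186 (0.951), and for Acot2 they were Nob1 (0.956), Slc25a25 (0.955) and Cdkn1a (0.947). For Acot1 they were Slc25a47 (0.946), Cdc42ep1 (0.943) and Ctrl (0.941), and for Acot13 Gm7120 (0.977) and the respiratory chain genes Cox7a2 (0.970) and Uqcrh (0.970). Among the members, Acot4 and Acot13 had r = 0.875, Acot2 and Acot7 had r = 0.752, and Acot2 and Acot4 had r = 0.0229. The points share libraries and treatment groups, and the values describe these samples only.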

How the data were processed

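Raw counts of 20295 genes were deposited by the authors, who mapped reads to mm9 (STAR 2.4.2a), collapsed reads of equal position and length (HOMER) and assigned them to genes (iRNA-seq). Such collapsing caps short genes with many reads. The deposited table also gives positions, whose starts were raised by 1, and a counted length. The annotation version and the use of strand are not given in the sources used here. From these counts, edgeR 4.0.16 in R 4.3.3 fitted the quasi-likelihood model over all 16 samples with a mean for each of 6 groups, no covariate, TMM scaling and filterByExpr, with Benjamini-Hochberg adjustment over 12786 genes and a threshold of 0.05. CPM were computed from the summed counts of these genes and TMM factors. There were 9 comparisons, named in the report for all members. The test was checked on simulated data. For the differences in response it recovered a smaller share of changed genes than the limit first set, and that limit was lowered afterwards for them alone. The alternatives were DESeq2 size factors, the Wald test of DESeq2 1.42.0, no filter, at least 10 counts in every sample, the compared groups alone, a replicate block, each sample left out in turn, an absolute log2FC of at least 1, and Acot1 to Acot4 summed. Samples of 1 group differed by more than sampling noise (chi-square per degree of freedom 4.37 to 156), so none was counted as a duplicate. The members and lists were chosen with earlier results of these data known. Not all listed genes that passed the threshold are named. Ucp1 and Pdgfrb, which passed in no comparison by edgeR, and Dio2, which was not tested, are named for their levels. The 3 most similar genes are given for each called member except Acot3. Coding sequences were aligned with MAFFT 7.526, and plots used matplotlib 3.10.9 (Python 3.11.15).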

Additional observations from a re-analysis of the deposited data

Results flagged for a closer look

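The response of Acot4 to SR-3420 differed between cells with and without TC. By a test of the difference itself, the log2FC with TC was 2.53 lower (a difference of -2.53; edgeR adjusted p = 0.00477), with all 3 samples of TC and SR-3420 below all 3 of TC, whereas the vehicle and SR-3420 samples overlapped. No group held 4 or more samples, so single samples were not tested for standing apart.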

How the results depend on the processing

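Of the 72 log2FC of members tested, 12 passed the threshold, 1 of them for Acot3 on few reads. Under DESeq2's size factors, the DESeq2 Wald test and the replicate block all 12 kept their direction and their side of the threshold, as did the 11 that could be tested with at least 10 counts in every sample, while 4 of 11 lost it in models of the compared groups alone, which have fewer samples, and 1 with no filter. Acot3 had no value with at least 10 counts in every sample. Its SE was the largest of the members tested in each of the 9 comparisons.

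In models of the compared groups alone, 0 members were called for SR-3420 against vehicle, 0 for SR-3420 on top of ETO and 0 for TC with SR-3420 against SR-3420, and with an absolute log2FC of at least 1, 0 for SR-3420 on top of ETO. That limit also left out Acot13 for SR-3420 on top of TC (log2FC -0.74). The DESeq2 Wald test called 2 members instead of 1 for the TC difference in response, beside 832 instead of 321 of all genes. It called 5 members instead of 4 for SR-3420 on top of TC (Acot7 added), beside 5251 instead of 4722 genes. For TC against vehicle it called 4 members instead of 3 (Acot13 added), beside 2035 instead of 1497 genes. These gains are not particular to the members. Acot7 with SR-3420 on top of TC also passed with no filter and without TC+SR-3420 replicate 3. Leaving out each sample in turn, the calls ranged from 0 to 1 for SR-3420 against vehicle (0 without vehicle replicate 3 or SR-3420 replicate 1), from 1 to 2 for SR-3420 on top of ETO (1 without ETO replicate 1, ETO+SR-3420 replicate 1 or ETO+SR-3420 replicate 2), from 3 to 5 for SR-3420 on top of TC (3 without TC replicate 1 or TC replicate 2, where Acot3 failed the filter on low counts), from 1 to 3 for TC against vehicle (1 without vehicle replicate 3) and from 0 to 1 for TC with SR-3420 against SR-3420. Leaving out a vehicle or SR-3420 sample leaves 1 in that group, which is then assumed to vary like the others. Calls over all genes are not given here for the compared groups alone, the log2FC limit or each sample left out. The counts of members under these settings are descriptions only.

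With the replicate number as a block, members called went from 1 to 2 for SR-3420 against vehicle, from 4 to 7 for SR-3420 on top of TC, from 2 to 5 for SR-3420 on top of ETO, from 3 to 4 for TC against vehicle, from 1 to 2 for TC with SR-3420 against SR-3420, from 0 to 1 for ETO with SR-3420 against SR-3420 and from 1 to 3 for the TC difference in response. The genes added were Acot7 in each of the first 3, Acot8 and Acot9 with SR-3420 on top of TC, Acot2 and Acot9 with SR-3420 on top of ETO, Acot13 with TC against vehicle, Acot9 with TC with SR-3420 against SR-3420, Acot4 with ETO with SR-3420 against SR-3420, and Acot1 and Acot2 for the TC difference in response. Calls over all genes rose as well, for SR-3420 on top of TC from 2208 higher and 2514 lower to 3515 and 3670, on top of ETO from 1597 and 1637 to 2897 and 2879, for SR-3420 alone from 607 and 357 to 1423 and 1015, for TC against vehicle from 610 and 887 to 1530 and 1542, for TC with SR-3420 against SR-3420 from 131 and 454 to 1277 and 1731, for ETO with SR-3420 against SR-3420 from 0 and 1 to 761 and 1077, and for the TC difference in response from 158 and 163 to 737 and 932, so the gains are not particular to the members. The block turned the log2FC of Acot9 for TC against vehicle to 0.016 and that of Acot7 for ETO against vehicle to -0.17, neither past the threshold. Deviations from the group means had a mean r of 0.410 over 35 pairs of the same number and -0.203 over 71 pairs of different numbers. Of the 35, 27 were over 0.1, as were 25 of the 71. Each same-number pair not over 0.1 held TC replicate 1 or ETO+SR-3420 replicate 2. Of the 16 samples, 10 correlated best with their own number. The pairing is a hint from the data and not from the design. The study describes separate experiments, but neither it nor the labels say that a number marks the same experiment in each group.

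Summing Acot1 to Acot4 gives a value led by Acot2, which holds 91.6% to 98.2% of their counts. The sum had a log2FC of 0.089 for SR-3420 on top of TC, where Acot1 and Acot4 fell and the few reads of Acot3 were lower, 0.37 on top of ETO, where Acot4 fell, and 0.19 for TC with SR-3420 against SR-3420, the opposite direction to Acot1, Acot3 and Acot4 there. Against Acot1 alone it also differed in sign for ETO against vehicle (0.41) and for the ETO difference in response (-0.63). Acot3, for ETO with SR-3420 against SR-3420, turned to 0.0038 with DESeq2's size factors and 0.022 with no filter, from -0.011.

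Without each sample in turn, none of the 12 called values changed sign, and 29 values that had not passed did, so their directions are not settled; the cause was not tested. For SR-3420 against vehicle the ranges were Acot1 -0.13 to 0.44, Acot3 -0.59 to 1.77, Acot4 -0.010 to 0.43, Acot8 -0.18 to 0.68 and Acot9 -0.25 to 0.33. For SR-3420 on top of ETO the ranges were Acot1 -0.019 to 0.37, Acot3 -0.28 to 0.37 and Acot8 -0.54 to 0.022. For TC against vehicle the ranges were Acot7 -0.089 to 0.68 and Acot9 -0.28 to 0.23. For ETO against vehicle the ranges were Acot3 -0.64 to 1.72, Acot4 -0.14 to 0.31, Acot7 -0.31 to 0.47, Acot8 -0.44 to 0.35, Acot9 -0.32 to 0.19 and Acot13 -0.036 to 0.054. For TC with SR-3420 against SR-3420 the ranges were Acot7 -0.43 to 0.47 and Acot13 -0.19 to 0.062. For ETO with SR-3420 against SR-3420 the ranges were Acot1 -0.46 to 0.085, Acot2 -0.41 to 0.032, Acot3 -0.32 to 0.38, Acot7 -0.71 to 0.20, Acot9 -0.074 to 0.48 and Acot13 -0.24 to 0.0059. For the TC difference in response the range was Acot7 -0.73 to 0.23. For the ETO difference in response the ranges were Acot1 -0.21 to 0.35, Acot3 -1.73 to 0.63, Acot7 -0.79 to 0.17 and Acot9 -0.016 to 0.56.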
